A study of Mus musculus with 6 samples.

Results

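Transcripts of 9 citrate cycle genes were followed in mouse kidney 1 day after lipopolysaccharide (LPS), a component of the bacterial outer membrane that is injected to model septic kidney injury. They were Cs, Idh1, Idh2, Idh3a, Idh3b, Ogdh, Suclg1, Fh1 and Mdh2, taken by symbol from a list of cycle enzymes, and they are 9 of 17680 gene symbols measured. Bulk RNA of kidney tissue was sequenced from 3 LPS and 3 Control mice. All 6 mice were wild-type C57BL/6 animals aged 6 to 8 weeks, injected into the peritoneum 24 h earlier with LPS or, in the Control group, with PBS. The labels and the design text used here state neither the dose nor the sex of the mice.

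The citrate cycle burns acetyl groups in the mitochondrial matrix and hands the electrons to the respiratory chain through NADH and succinate. Its intermediates also leave the matrix for glucose synthesis, lipid synthesis and ammonia handling. The proximal tubule of the kidney is packed with mitochondria, oxidises fatty acids, lactate and glutamine, and takes up citrate and other cycle acids from the filtrate.

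In LPS kidneys 6 of the 9 genes fell, none rose, and Cs, Idh1 and Fh1 did not pass the test. The larger changes were those of Idh2, the mitochondrial NADP-dependent isocitrate dehydrogenase, at 0.506 of its Control level, and of Idh3b, a subunit of the NAD-dependent enzyme, at 0.563. Ogdh stood at 0.692 of its Control level and Suclg1, Mdh2 and Idh3a between 0.798 and 0.870. The count was 6 lower of 9 where 24.8% of all 14219 tested genes were lower, and 0 higher where 25.7% were higher (quasi-likelihood test in edgeR, adjusted over all genes by Benjamini-Hochberg, p under 0.05). In either direction 50.5% of tested genes passed, so a call by itself was common in this comparison. The median log2 fold change was -0.30 over the 9 genes and 0.008 over all tested genes.

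The libraries held between 31313181 and 33454344 counts in the LPS group and between 29097558 and 31071170 in the Control group. LPS replicate 2 stood apart: 24 genes were over 32-fold higher in it than in every other library and took 3.96% of its counts. Among them were seminal vesicle transcripts, whose listed genes summed to 36830 CPM (counts scaled to a common library total) there and to 32.5 to 46.4 CPM elsewhere. Without LPS replicate 2, 5 of the 9 cycle genes fell and none rose, Idh3a being the one that no longer passed (edgeR adjusted p = 0.109). The kidney label was checked with its segment markers. All 20 proximal tubule markers were detected and all 20 fell, with a summed level of 20350 to 21860 CPM in LPS and 65970 to 67930 CPM in Control libraries. Marker lists of the thick ascending limb (8 of 9 lower), distal convoluted tubule (6 of 6), intercalated cells (7 of 7) and principal cells (4 of 7) also had members that fell and none that rose. Most markers of podocytes (4 of 6), endothelium (5 of 7) and fibroblasts and pericytes (4 of 7) did not pass, with median log2 fold changes of -0.11, 0.09 and 0.07. In these lists 2 markers each fell, and 1 of fibroblasts and pericytes rose. For all marker lists, the shares over all tested genes were 24.8% lower and 25.7% higher. Of 12 neutrophil markers 8 were tested and all 8 rose, with a summed level of 73.1 to 107 CPM in LPS and 3.19 to 4.01 CPM in Control libraries. Ly6g, Elane and Mpo had at most 6 counts in the 3 LPS libraries together. Cxcr2, Mmp8, Mmp9, Retnlg and Trem1 had 12, 7, 31, 7 and 4 counts in the 3 Control libraries together. These genes passed the low-count filter through the LPS libraries, so their direction was largely fixed once they were kept. Of 13 monocyte and macrophage markers 6 rose and 4 fell, with summed levels of 435 to 481 CPM in LPS and 163 to 255 CPM in Control libraries. In bulk tissue, fewer cells of a type and less RNA per cell cannot be told apart, and the part of these cell type markers in the changes below was not tested.

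Promoters of 4 of the genes are shown because they span the range of responses: Idh2 and Idh3b had the lowest log2 fold changes of the 9, and Cs and Fh1 had values close to 0. Each is the 250 bases before the start site on the gene's own strand, 5′ to 3′, from RefSeq on mouse build GRCm38.p6, and capitals mark the pentamer CCAAT or its reverse complement ATTGG. The windows are chr7:80115351-80115600 for Idh2, chr2:130284452-130284701 for Idh3b and chr1:175625636-175625885 for Fh1, all on the minus strand, and chr10:128337477-128337726 on the plus strand for Cs.
Idh2: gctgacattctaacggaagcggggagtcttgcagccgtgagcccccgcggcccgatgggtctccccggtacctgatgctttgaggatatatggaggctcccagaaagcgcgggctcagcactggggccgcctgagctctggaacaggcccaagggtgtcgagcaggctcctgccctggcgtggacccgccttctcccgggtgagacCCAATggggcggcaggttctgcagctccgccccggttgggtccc
Idh3b: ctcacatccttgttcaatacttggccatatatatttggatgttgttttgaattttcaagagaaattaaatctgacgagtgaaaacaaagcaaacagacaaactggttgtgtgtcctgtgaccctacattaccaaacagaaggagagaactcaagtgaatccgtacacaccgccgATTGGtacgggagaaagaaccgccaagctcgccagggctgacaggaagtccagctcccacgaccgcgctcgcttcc
Cs: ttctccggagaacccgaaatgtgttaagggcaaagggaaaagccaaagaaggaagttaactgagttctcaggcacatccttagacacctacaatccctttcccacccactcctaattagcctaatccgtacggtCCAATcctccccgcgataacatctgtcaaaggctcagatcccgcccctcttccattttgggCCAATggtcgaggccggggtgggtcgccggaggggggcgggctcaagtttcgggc
Fh1: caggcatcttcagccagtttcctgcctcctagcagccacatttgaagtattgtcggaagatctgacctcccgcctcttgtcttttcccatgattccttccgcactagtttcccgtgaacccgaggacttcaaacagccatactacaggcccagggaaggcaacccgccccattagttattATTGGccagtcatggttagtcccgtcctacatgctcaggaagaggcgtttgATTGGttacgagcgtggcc

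The CCAAT pentamer, the core of the box bound by nuclear factor Y, lay on the gene's own strand 44 bases before the start of Idh2 and 116 and 55 bases before that of Cs. Its reverse complement lay 76 bases before the start of Idh3b and 70 and 19 bases before that of Fh1. The genes that fell and those that did not thus shared this feature in the windows shown. The RefSeq table held 14 windows of 300 bases (250 before the start and 50 after) for 8 of the 9 genes, 6 of the windows belonging to Ogdh and in part overlapping, and Idh3a was not among them. CCAAT on either strand was found in windows of 6 of these 8 genes, among them Idh1 and Ogdh and not Mdh2 or Suclg1, against 41.1% of all 27025 genes in the table. The motif TNAAGGTCA of oestrogen-related receptors was in 0 of the 14 windows, against 1.28% of all 32851 windows. The nuclear respiratory factor 1 motif GCGCATGC was in 2 overlapping Ogdh windows, against 2.71% of all windows, and the ETS motif CCGGAAGT in none, against 3.89%. The shorter half-site AGGTCA was in a window of Fh1 and in one of Ogdh (16.3% of all windows), and the E-box CACGTG in 3 windows of Ogdh (7.15%). Both strands were searched, and a match describes letters in the window, not binding.

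Citrate synthase, the enzyme encoded by Cs, joins acetyl-CoA to oxaloacetate and is often used as a measure of mitochondrial content. Neither the enzyme nor mitochondrial content was measured here. The Cs transcript had 352, 347 and 371 CPM in the LPS libraries, against 337, 369 and 360 CPM in the Control libraries. The groups overlapped, and the log2 fold change was 0.005 ± 0.074 (SE; 95% interval -0.16 to 0.17; edgeR adjusted p = 0.965). A fall of the size seen for Idh2 or Idh3b lies outside that interval.

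Idh1 and Idh2 encode 2 isocitrate dehydrogenases that make NADPH, IDH1 in the cytosol and peroxisomes and IDH2 in the mitochondrial matrix. Idh1 had 533, 523 and 565 CPM in LPS libraries, against 544, 602 and 522 CPM in Control libraries. These values overlapped, and the log2 fold change was -0.04 ± 0.082 (95% interval -0.23 to 0.14; edgeR adjusted p = 0.701). Idh2 had 290, 253 and 276 CPM in LPS libraries, against 480, 587 and 550 CPM in Control libraries. Every LPS library lay well below every Control library, with a log2 fold change of -0.98 ± 0.097 (edgeR adjusted p = 4.54e-05), lower than those of all but 10.6% of tested genes. Within each library the ratio of Idh1 to Idh2 counts was 1.84, 2.07 and 2.05 in LPS kidneys, against 1.13, 1.03 and 0.950 in Control kidneys. The means were 1.99 ± 0.130 in LPS and 1.04 ± 0.0923 in Control kidneys (SD, n = 3 each), and the log2 ratio was higher by 0.94 in LPS kidneys. An exact two-sided permutation test over the libraries gave p = 0.10, the smallest that 3 against 3 allow, and 0.10 after Benjamini-Hochberg adjustment over 6 ratios.

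**Figure D1:**
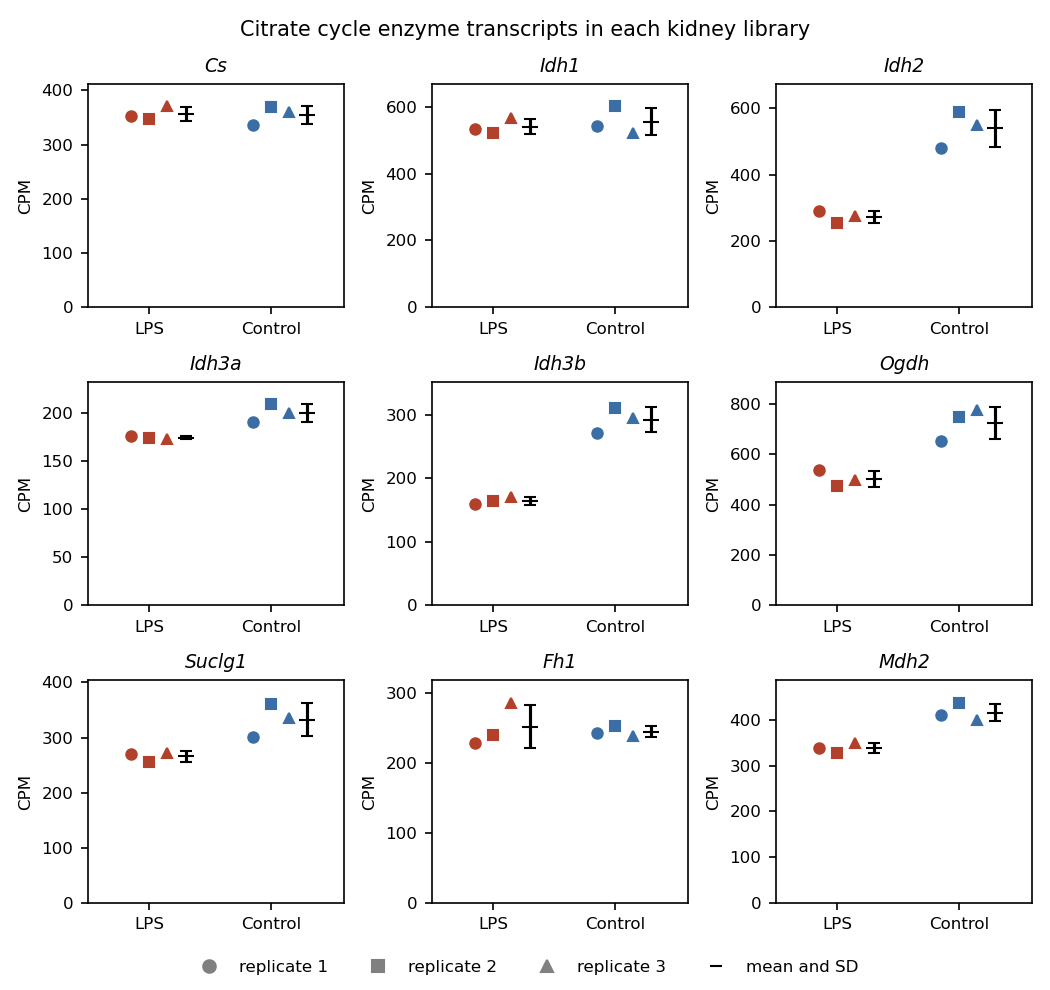
Expression of the 9 genes in CPM (vertical axes, from 0) in LPS and Control kidneys, 1 symbol per library, with the mean and SD of 3 libraries in black. The groups are apart for Idh2, Idh3a, Idh3b, Ogdh, Suclg1 and Mdh2 and overlap for Cs, Idh1 and Fh1, where LPS replicate 3 is the highest Fh1 value at 286 CPM.

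The NAD-dependent isocitrate dehydrogenase is the form that drives the cycle forward, and it is built of a catalytic alpha subunit (Idh3a), a beta subunit (Idh3b) and a gamma subunit (Idh3g). Idh3a had 175, 174 and 172 CPM in LPS libraries, against 191, 209 and 199.7 CPM in Control libraries. The groups did not overlap, and its fall by 0.20 ± 0.074 on the log2 scale passed narrowly (edgeR adjusted p = 0.0489). Without any single library except Control replicate 1, the adjusted p of Idh3a was between 0.0620 and 0.164, and it was 0.0685 with no filter on low counts. Idh3b had 159, 164 and 171 CPM in LPS libraries, against 271, 311 and 295 CPM in Control libraries. It fell in every LPS library by more than the spread of either group, with a log2 fold change of -0.83 ± 0.081 (edgeR adjusted p = 4.45e-05). The exons of Idh3b share 5 bases with those of Nop56 on the opposite strand in GENCODE, and no other of the 9 genes shares exon bases with another gene. Idh3g, outside the 9, fell by 0.64 ± 0.089 on the log2 scale (edgeR adjusted p = 0.000366), so all 3 subunits passed. Of the differences in size between them, only that of Idh3a and Idh3b was tested. The ratio of Idh3a to Idh3b counts was 1.10, 1.06 and 1.01 in LPS kidneys, against 0.702, 0.672 and 0.677 in Control kidneys. It was higher by 0.63 on the log2 scale in LPS kidneys, with no overlap and an exact permutation p = 0.10 (two-sided, the smallest possible; 0.10 after adjustment over the 6 ratios).

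Ogdh encodes the first component of the 2-oxoglutarate dehydrogenase complex, which releases the second CO2 of the cycle. It had 537, 472 and 497 CPM in LPS libraries, against 652, 749 and 776 CPM in Control libraries. The groups were apart, with a log2 fold change of -0.53 ± 0.092 (edgeR adjusted p = 0.00128). The other components moved the same way: Dlst, the succinyltransferase, had a log2 fold change of -0.36 ± 0.084 and Dld, the lipoamide dehydrogenase shared with the pyruvate dehydrogenase complex, one of -0.46 ± 0.085 (edgeR adjusted p = 0.00623 and 0.00179). Ogdhl, a related gene of low level here, had 2.33 ± 1.04 CPM in LPS libraries and 4.25 ± 1.08 CPM in Control libraries, and it did not pass (adjusted p = 0.0614).

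Suclg1 encodes the alpha subunit of succinyl-CoA ligase, which pairs with an ATP-forming beta subunit (Sucla2) or a GTP-forming one (Suclg2). It had 271, 255 and 271 CPM in LPS libraries, against 302, 360 and 336 CPM in Control libraries. The groups did not overlap and the log2 fold change was -0.33 ± 0.085 (edgeR adjusted p = 0.0111), but without Control replicate 2 the adjusted p was 0.0567. Sucla2 fell by 0.90 ± 0.095 and Suclg2 by 0.43 ± 0.098 on the log2 scale (edgeR adjusted p = 7.10e-05 and 0.00584). The difference between the beta subunits was not tested.

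The last pair of reactions turns fumarate into malate and malate into oxaloacetate. Fh1, which encodes fumarate hydratase, had 229, 241 and 286 CPM in LPS libraries, against 242, 253 and 238 CPM in Control libraries. LPS replicate 3 was the highest and LPS replicate 1 the lowest of the 6, and the log2 fold change was 0.04 ± 0.096 (95% interval -0.18 to 0.26; edgeR adjusted p = 0.739). Without LPS replicate 3 it was -0.06 and still did not pass. Mdh2, which encodes the mitochondrial malate dehydrogenase, had 338, 327 and 348 CPM in LPS libraries, against 410, 437 and 401 CPM in Control libraries. The groups were apart, with a log2 fold change of -0.30 ± 0.073 (edgeR adjusted p = 0.00777). Mdh1, the cytosolic enzyme of the malate-aspartate shuttle, is outside the 9 and had 515, 546 and 615 CPM in LPS libraries, against 1392, 1441 and 1420 CPM in Control libraries. That was a log2 fold change of -1.34 ± 0.086 (edgeR adjusted p = 3.56e-06). Among the malate dehydrogenases the cytosolic form thus had the lower log2 fold change, and among the NADP-dependent isocitrate dehydrogenases the mitochondrial form did. This contrast was noted after the values were seen and was not tested.

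Together the 9 transcripts summed to 2883, 2755 and 2958 CPM in LPS libraries, against 3428, 3877 and 3677 CPM in Control libraries. The sums did not overlap and differed by -0.35 on the log2 scale. They made up 0.285% ± 0.0101 of all counts in LPS and 0.367% ± 0.0155 in Control kidneys (SD, n = 3 each). Within the sum, Idh2 held 9.52% in LPS and 14.7% in Control kidneys, Idh1 18.9% and 15.2%, Cs 12.4% and 9.71%, and Fh1 8.78% and 6.69%. The largest share was that of Idh1 in LPS kidneys and of Ogdh, at 19.8%, in Control kidneys. Non-overlap of the groups, seen for 6 of the 9 genes, was seen for 60.2% of all tested genes.

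The deposited FPKM values (fragments scaled to gene length and library total) allow an order of levels among the genes. In LPS kidneys the order was Mdh2 at 262 ± 7.72, Idh1 at 221 ± 7.72, Suclg1 at 190.1 ± 7.40, Fh1 at 154 ± 17.0, Cs at 119 ± 3.57, Idh3b at 108 ± 2.75, Idh3a at 72.0 ± 1.52, Ogdh at 66.3 ± 4.91 and Idh2 at 48.9 ± 3.74 FPKM (SD, n = 3). In Control kidneys it was Mdh2 at 325 ± 13.7, Suclg1 at 239.5 ± 16.5, Idh1 at 229 ± 15.6, Idh3b at 193 ± 9.23, Fh1 at 150.4 ± 4.65, Cs at 119.7 ± 3.12, Idh2 at 97.2 ± 7.93, Ogdh at 96.3 ± 6.83 and Idh3a at 83.3 ± 2.23 FPKM. Neighbours whose libraries overlapped were Idh3a and Ogdh in LPS kidneys, and Suclg1 with Idh1 and Idh2 with Ogdh in Control kidneys. Idh2 stood at rank 1510 of all 17680 symbols in LPS kidneys, against rank 746 in Control kidneys, and Mdh2 at rank 238 against rank 197. The order rests on the gene lengths behind the FPKM values, which came out at 5556 bases for Idh2 where GENCODE exons cover 2588 bases. With the GENCODE length Idh2 would stand at 105 FPKM in LPS and 209 FPKM in Control kidneys, above Mdh2 at 94.5 and 117 FPKM. Changes between the groups do not depend on the length.

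**Figure D2:**
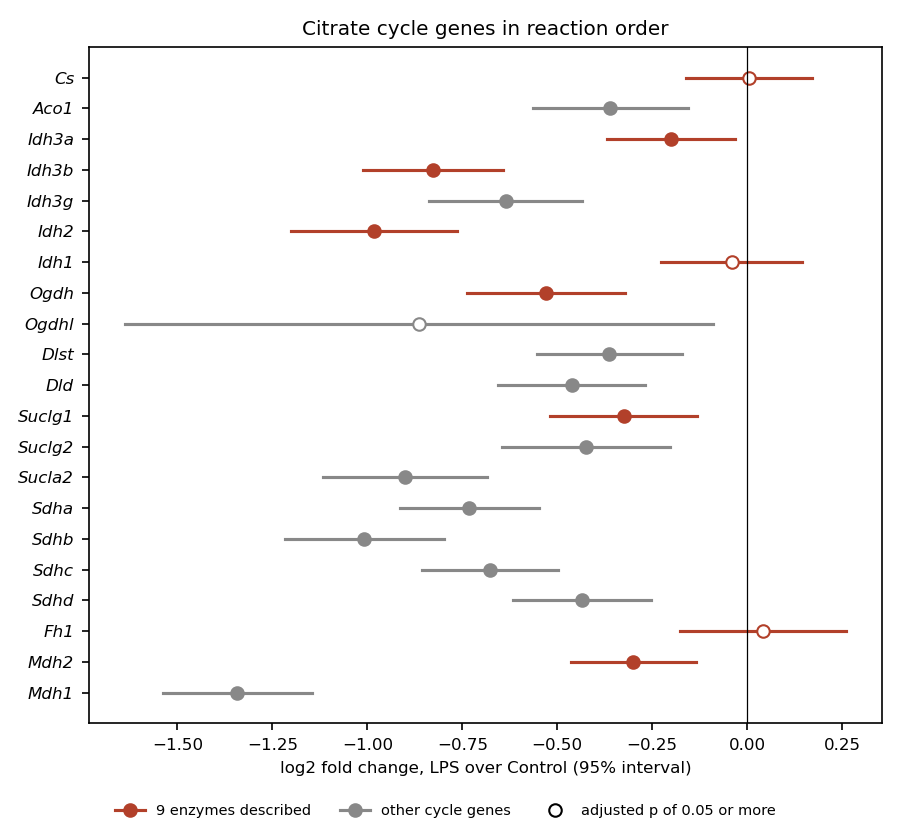
Log2 fold change of LPS over Control (horizontal axis) with its 95% interval for 21 citrate cycle genes in reaction order from top to bottom, the 9 genes in red and 12 of the 13 others in grey. Open circles did not pass: Cs, Idh1 and Fh1 have intervals that include 0, and Ogdhl is a gene of low level.

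The 13 other genes of the cycle include steps that the 9 leave out, among them succinate dehydrogenase. Of these 13 genes 12 fell, none rose, and their median log2 fold change was -0.66. Among all tested genes 24.8% were lower and 25.7% higher. Aco1, the cytosolic aconitase, which also binds iron-responsive elements, fell by 0.36 ± 0.090. The subunits of succinate dehydrogenase, the step shared with the respiratory chain, fell by 1.01 (Sdhb), 0.73 (Sdha), 0.68 (Sdhc) and 0.44 (Sdhd) on the log2 scale, with edgeR adjusted p between 2.84e-05 and 0.00176. The next gene in the cycle after these subunits is Fh1, one of the 3 that did not pass.

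Pyruvate enters the cycle through its carrier and pyruvate dehydrogenase, and of 13 genes of that entry 10 fell, 2 rose and Pdp1 did not pass. Over all tested genes 24.8% were lower and 25.7% higher. The carrier subunits Mpc2 and Mpc1 had log2 fold changes of -1.05 ± 0.085 and -0.80 ± 0.098, and Pdk3, an inhibitory kinase, and Pdp2, an activating phosphatase, had -0.91 ± 0.077 and -1.33 ± 0.14. Pdk4, a kinase that inhibits pyruvate dehydrogenase, was one of the 2 that rose, and it was named after its value was seen. It had 888, 349 and 309 CPM in LPS libraries, against 27.9, 31.4 and 60.6 CPM in Control libraries. All LPS libraries were above all Control libraries, replicate 1 most, with a log2 fold change of 3.69 ± 0.46 (edgeR adjusted p = 0.000193).

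Side reactions and carriers that feed or drain the cycle moved in both directions, with 7 of 21 genes higher and 9 lower. The shares over all tested genes were 25.7% higher and 24.8% lower. The median log2 fold change of the 21 genes was -0.18. The 4 with the smallest p all fell: Acss2, which makes acetyl-CoA from acetate, by 2.14 ± 0.12, the malic enzyme Me1 by 1.16 ± 0.076, and the dicarboxylate and citrate carriers Slc13a3 by 1.84 ± 0.13 and Slc13a2 by 0.98 ± 0.092 on the log2 scale. Among those that rose, named after their values were seen, were Glud1, Got1, Got2, Pck1, Pck2 and Acly. They encode enzymes of glutamate and aspartate metabolism, the phosphoenolpyruvate carboxykinases and ATP citrate lyase. Glud1, which turns glutamate into 2-oxoglutarate, had 877, 1048 and 1207 CPM in LPS libraries, against 504, 558 and 586 CPM in Control libraries, a log2 fold change of 0.93 ± 0.12. Slc13a3 is also in the proximal tubule marker list.

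Of 8 genes that handle itaconate and 2-hydroxyglutarate or encode mitochondrial sirtuins, 6 fell and 1 rose. The shares over all tested genes were 24.8% lower and 25.7% higher. The list member that rose was Acod1, which makes itaconate from cis-aconitate and is known from activated myeloid cells. It had 845 counts in the 3 LPS libraries together, against 5 counts in the 3 Control libraries, or 8.73 ± 1.19 and 0.0549 ± 0.0379 CPM (edgeR adjusted p = 8.59e-07). Its fold is poorly fixed because of the few Control counts. Acod1 passed the low-count filter through the LPS libraries, so its direction was largely fixed once it was kept. Among the genes with the next smallest p, Adhfe1, a hydroxyacid-oxoacid transhydrogenase that makes D-2-hydroxyglutarate, fell by 1.69 ± 0.088 and Clybl, which breaks down the itaconate product citramalyl-CoA, by 0.97 ± 0.081 on the log2 scale. Neutrophil markers, whose values are given above, were also higher in the LPS libraries, and their part in the Acod1 level was not tested.

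Of 15 genes for lipoate synthesis, iron-sulfur clusters and succinate dehydrogenase assembly 7 fell, none rose and the median log2 fold change was -0.21. Nfs1, the cysteine desulfurase, fell by 0.77 ± 0.072, the succinate dehydrogenase assembly factor Sdhaf4 by 0.77 ± 0.099, the ferredoxin Fdx1 by 0.74 ± 0.094 and Isca1, which acts in cluster assembly, by 0.44 ± 0.078 on the log2 scale. Of 18 regulators of mitochondrial genes 7 fell, 1 rose and 10 did not pass, with a median of -0.22. Beside the counts of both lists, 24.8% of all tested genes were lower and 25.7% higher. Pprc1, a coactivator related to PGC-1 alpha, had a log2 fold change of 0.99 ± 0.12. Esrra, the oestrogen-related receptor alpha, fell by 0.65 ± 0.085, Hnf4a, a nuclear receptor of tubule epithelium, by 0.52 ± 0.091 and Tfam, which packages and transcribes mitochondrial DNA, by 0.38 ± 0.072 on the log2 scale. Ppargc1a, the gene of PGC-1 alpha, had a log2 fold change of -0.15 ± 0.13 and did not pass.

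**Figure D3:**
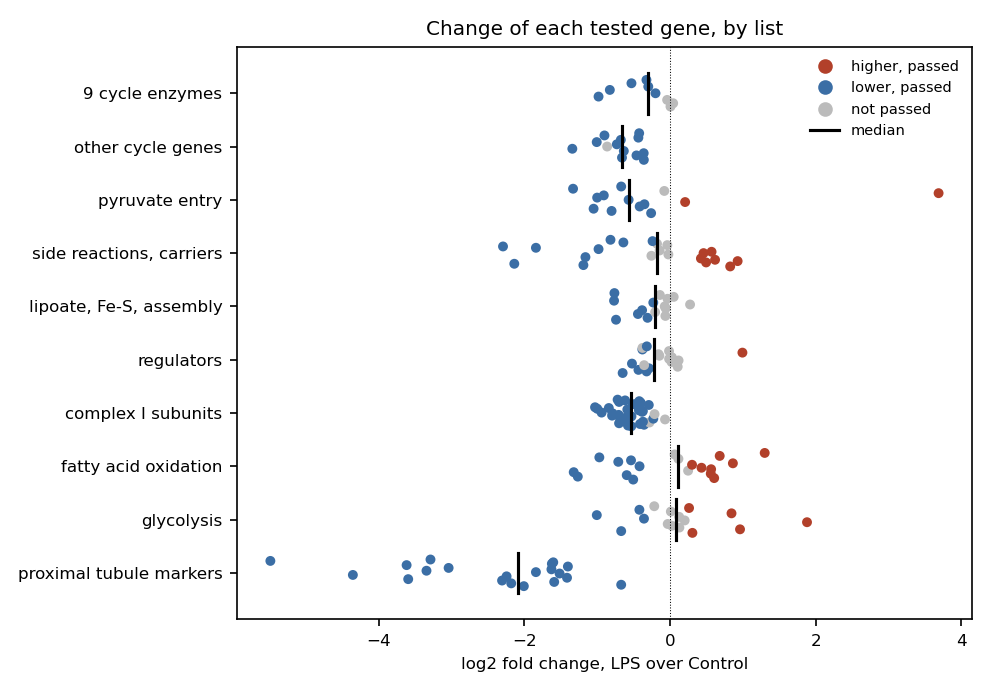
Log2 fold change of LPS over Control (horizontal axis) of each tested gene by list, with the list's median as a black bar, red for genes that rose, blue for genes that fell and grey for those that did not pass. The 9 cycle genes lie between -0.98 and 0.04, complex I subunits between -1.03 and -0.07, and proximal tubule markers between -5.49 and -0.67.

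Set beside other energy pathways, the 9 genes had a median between that of complex I subunits and those of fatty acid oxidation and glycolysis. This place holds for the 9 alone, since the 13 other cycle genes had a median of -0.66, below that of complex I subunits. Of 36 complex I subunits 33 fell and none rose, with a median log2 fold change of -0.53. Over all tested genes 24.8% were lower and 25.7% higher. Those with the smallest p were Ndufs1 at -1.03 ± 0.084, Ndufc1 at -1.0 ± 0.092, Ndufb5 at -0.94 ± 0.10 and Ndufb11 at -0.80 ± 0.086. Of 19 fatty acid oxidation genes 8 rose and 8 fell, with a median of 0.11. Among all tested genes 50.5% passed in either direction. The thiolase Acat1 and the dehydrogenases Acadm and Hadh had log2 fold changes of -1.32 ± 0.079, -1.27 ± 0.084 and -0.97 ± 0.094, and the carnitine carrier Slc25a20 had a log2 fold change of 1.30 ± 0.096. Of 16 glycolysis genes 5 rose and 4 fell, with a median of 0.07. These counts are close to the shares over all tested genes, 25.7% higher and 24.8% lower. The enolase Eno1, the hexokinase Hk2 and the phosphofructokinase Pfkp had log2 fold changes of 0.96 ± 0.092, 1.88 ± 0.19 and 0.84 ± 0.13, and the phosphofructokinase Pfkm one of -1.01 ± 0.13.

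As ratios within each library, the summed 9 transcripts stood at 0.701 ± 0.0391 of the summed complex I subunits in LPS and at 0.606 ± 0.0335 in Control kidneys (SD, n = 3 each). Against fatty acid oxidation the ratios were 0.490 ± 0.0143 in LPS and 0.541 ± 0.0150 in Control kidneys, and against glycolysis 0.276 ± 0.0140 and 0.311 ± 0.00270. In CPM the groups did not overlap in these ratios. The log2 differences were 0.21 for complex I, -0.14 for fatty acid oxidation and -0.17 for glycolysis, and the last 2 depended on how a list was averaged. With geometric means in place of sums they were -0.32 and -0.48, and with FPKM in place of CPM they were -0.06 and -0.06, with overlapping groups in both ratios. The ratio to the summed proximal tubule markers was 0.135 ± 0.000589 in LPS and 0.0549 ± 0.00261 in Control kidneys, 1.30 higher in LPS kidneys on the log2 scale, so the marker sum was lower in LPS kidneys by a larger factor than the sum of the 9 genes.

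**Figure D4:**
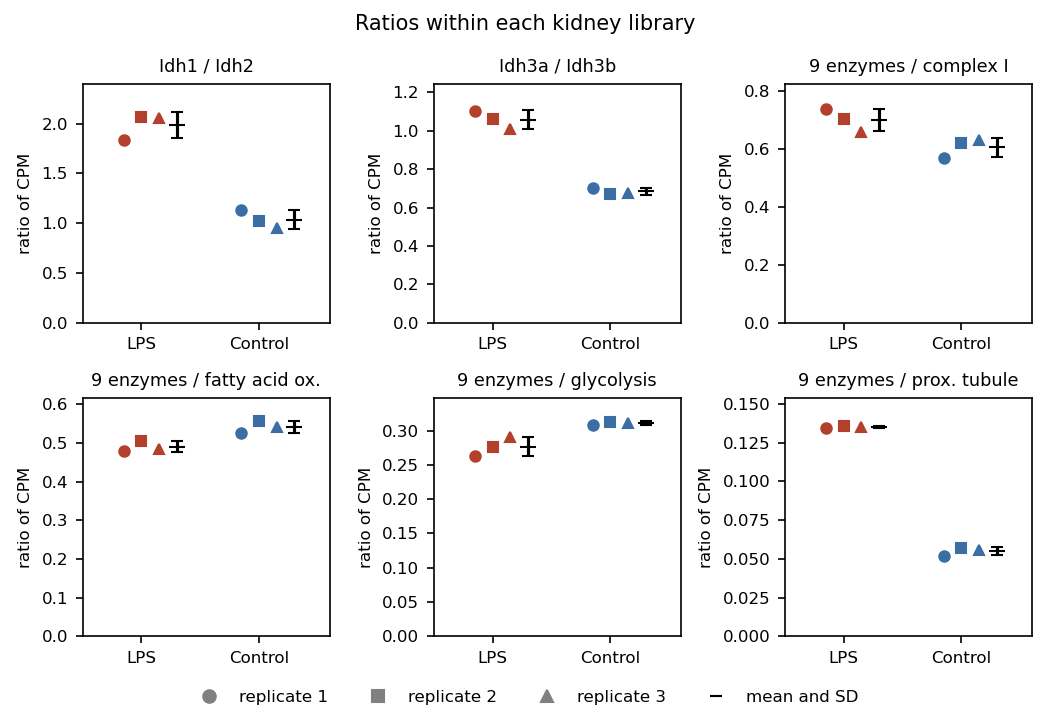
Ratios of CPM within each library (vertical axes, from 0, no unit) in LPS and Control kidneys, 1 symbol per library, with the mean and SD in black. Idh1 over Idh2 and Idh3a over Idh3b are higher in all 3 LPS libraries, and the sum of the 9 genes is higher relative to complex I subunits and proximal tubule markers and lower relative to fatty acid oxidation and glycolysis.

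The 9 genes varied among themselves around their average centred log2 CPM profile over the 6 libraries. Suclg1 was nearest to it, at a Euclidean distance of 0.0823, followed by Mdh2 at 0.106, and Idh2 was farthest at 0.785. Of 9707 other genes with a mean of at least 10 CPM, the 5 nearest to the average profile were Sp5 at 0.0298, Ergic3 at 0.0343, Zfp821 at 0.0498, Epn1 at 0.0521 and Nlrp6 at 0.0599. Their log2 fold changes lay between -0.37 and -0.32. A profile over 6 libraries in 2 groups is mainly the size of the group difference, so many genes can lie close to it.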

How the data were processed

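Per the labels' protocols, TRIzol was used to extract total RNA from the kidneys of 3 LPS and 3 Control mice, and a VAHTS Universal V6 kit to prepare the libraries. The authors deposited raw counts per gene symbol for each library. They also deposited FPKM values, and 106077 of 106080 of these could be rebuilt from the count, 1 integer length per gene and the library total (relative tolerance 1e-06). The submitters' processing notes name SAMtools, HISAT2, HTSeq, R 3.2.0 and DESeq2 without roles. The build, the annotation and the strand setting were not given in the sources used here.

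Groups came from the sample titles. Counts were filtered with filterByExpr (minimum count 10, minimum total 15), which kept 14219 genes and removed 3461. After scaling by TMM factors (0.986 to 1.03), LPS was set against Control in a two-sided test in edgeR 4.0.16 under R 4.3.3 (quasi-likelihood test, Benjamini-Hochberg over all genes kept, threshold 0.05), and the test was tested on simulated data. Standard errors of log2 fold changes were derived from the test's F statistic, as the absolute log2 fold change over its square root. Intervals used these standard errors and the t distribution. Single values per library were compared by exact permutation over the libraries. Chi-square statistics between replicates of a group were 9.9 or more per degree of freedom, above sampling noise. The labels do not say how the tissue of each mouse was divided, and p-values measure the spread between these libraries. Alternatives used DESeq2 1.42.0, limma 3.58.1, other scaling, filters and pseudocounts, and leaving out each library.

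The 9 genes, the gene lists and the naming rule were chosen with earlier results of these data known. The rule named the 9 genes, the 13 other cycle genes, the 4 genes of smallest p of each other pathway list, and the 5 genes nearest to the average profile. Some of these genes are not reported here. Genes named beyond it are said to be so or serve as list members that did not pass.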

Additional observations from a re-analysis of the deposited data

How the results depend on the processing

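The counts of 6 lower and 0 higher cycle genes were compared over 10 other settings of the fit and over 6 fits that each left out 1 library. None of the 9 rose in any of them, 5 or 6 fell under the other settings, and 4 to 6 fell with a library left out, 4 without Control replicate 2. Over all genes 3077 to 3724 were higher and 3010 to 3589 lower. Idh2, Idh3b, Ogdh and Mdh2 passed in all 16 of these fits. Idh3a failed with no low-count filter (adjusted p = 0.0685, edgeR) and without each library except Control replicate 1, and Suclg1 without Control replicate 2 (log2 fold change -0.27). The cause was not tested, and fits that leave out a library also have fewer samples.

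The sign of 3 genes that did not pass turned. Cs, at 0.005, was at -0.000404 with RLE factors, -0.00453 with library sizes alone, -0.00565 for genes with a mean CPM of at least 1, -0.00497 and -0.00501 in limma on log2(FPKM + 1) and log2(FPKM + 0.1), and between -0.0342 and 0.0323 with a library left out. With a library left out, Fh1 lay between -0.0571 and 0.11 and Idh1 between -0.0841 and 0.0188.

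Replicate numbers do not mark a shared litter, batch or day in the labels, and same-numbered libraries deviated from their group means with correlations of 0.026, -0.069 and -0.012. With the replicate number as a block, 5 of the 9 genes fell, 3414 genes were higher and 3331 lower, and Idh3a had an adjusted p = 0.0949 (edgeR).

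The log2 ratio of the 9 genes to proximal tubule markers was higher in LPS than in Control kidneys by 2.10 with geometric means, against 1.30 with sums. Leaving out a library moved the difference in the summed level between -0.40 and -0.31, that in Idh1 over Idh2 between 0.88 and 1.01 and that in Idh3a over Idh3b between 0.60 and 0.66, where the smallest exact p is 0.20. The intervals given for Cs, Idh1 and Fh1 show which changes these 6 libraries do not exclude.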
